A study of Mus musculus with 6 samples.

Results

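The genes of glucose uptake, glycolysis and lactate export, together with genes switched on by the hypoxia-inducible factor HIF1, were examined in mouse T cells exposed to macrophage supernatant. The list holds 35 mouse gene symbols out of 55401 genes in the read count table, and all 35 were found. It falls into 23 glycolysis genes (4 transporters, 16 enzymes and 3 flux regulators) and 12 HIF genes (the HIF1α subunit Hif1a, 2 oxygen-sensing hydroxylases and 9 HIF targets). RNA was sequenced from 6 cultures, 3 with supernatant of untreated macrophages (control 1 to 3) and 3 with supernatant of NFL-activated macrophages (NFL 1 to 3), where NFL is the light chain of the neurofilaments that stiffen axons. In both groups the T cells were described as spleen cells selected with beads against CD8a, a pattern that the markers given below did not show. The macrophages of both groups were grown for 7 days in 50 ng/mL M-CSF from CD11b-selected spleen cells. The supernatant made up 50% of an RPMI-1640 medium with 2% serum. For the NFL group the macrophages had received 5 µg/mL NFL for 24 h, and the deposited design text describes this NFL as made from freeze-thawed sciatic nerve, so the agent was not stated to be pure NFL. The methods of the study give another dose for a co-culture of this kind, so the dose is uncertain. The strain, age and sex of the spleen donors, and whether the 3 samples of a group came from separate animals or cultures, are not given in the labels, so the p-values measure the spread between these samples, which may be technical. The comparison asks whether soluble products of NFL-activated macrophages were accompanied by a different glycolytic or hypoxic expression program in T cells.

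Glycolysis splits glucose into pyruvate in the cytosol. Activated T cells raise it even when oxygen is plentiful, which means more glucose carriers, more hexokinase and lactate dehydrogenase, and export of lactate through monocarboxylate transporters. HIF1 is a transcription factor whose α subunit is hydroxylated by oxygen-dependent prolyl hydroxylases and then degraded. When oxygen is scarce, or when T-cell receptor and mTOR signals are strong, the subunit persists and switches on glycolytic genes as well as genes for angiogenesis, mitophagy and collagen modification. Since HIF1α is controlled largely at the protein level, its mRNA is a poor measure of its activity, and its targets are usually read instead.

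The libraries held 15843045 to 24639756 counts, at which 3 counts correspond to 0.122 to 0.189 CPM (read counts scaled by library size), and none was a copy of another. The labelled cell type was checked against 13 T-cell markers. Thy1, Trbc1 and Cd3e were present, and Cd3e, a chain of the T-cell receptor complex, was the only 1 of 11 tested T-cell markers to pass the test. It fell from 62.1, 64.6 and 56.4 CPM to 50.6, 49.1 and 50.8 CPM (log2 fold change -0.28, adjusted p = 5.72e-04). Lck, its signalling kinase, was lower in all NFL libraries without passing (log2 fold change -0.38, adjusted p = 0.217). Cd8a reached only 3.20 to 4.46 CPM and Cd8b1 0.87 to 1.57 CPM, below Cd4 (median 25.8 CPM), and Cd2 and Cd5 had 0 counts in every library. Trac, the T-cell receptor α constant gene, reached only 0.99 to 2.5 CPM. The β constant genes Trbc1 and Trbc2 had 341 to 377 CPM and 53.2 to 59.3 CPM. The other CD3 chains were lower than Cd3e, with Cd3d at 2.3 to 4.8 CPM and Cd3g at 6.0 to 8.9 CPM. Trbv1 alone made up 99.869% or more of the counts on T-cell receptor β variable segments. Whether the cells were a single clone was not tested. The data therefore did not show the marker pattern of mixed spleen CD8+ T cells, and the samples are called T cells here as in the labels. Of 13 macrophage markers, 8 were too low to be tested, among them C1qa, C1qb, C1qc, Csf1r, Itgam and Cd14. Cd68 (18.9 to 27.2 CPM) and Apoe (14.2 to 20.1 CPM) were present. Cd68 fell without overlap of the groups (log2 fold change -0.26, adjusted p = 0.0494), a call kept in 8 of 15 alternatives, and Apoe had a log2 fold change of 0.21 (adjusted p = 0.195). The summed level of 13 macrophage markers was 222 to 236 CPM in control and 221 to 227 CPM in NFL libraries, most of it Fcer1g. The summed level of 6 natural killer cell markers was lower in the NFL group (632 to 654 CPM) than in the control group (710 to 752 CPM), with Ncr1, Klra8 and Klrk1 at or near 0 and 2 of 3 tested markers, Gzma and Klrb1c, past the threshold. The summed B-cell markers were 16.6 to 17.8 CPM in control and 17.9 to 19.7 CPM in NFL libraries, with Ms4a1 and Ighm at 0, and the erythroid markers summed to 1.86 to 3.20 CPM without separating the groups. Which cells made these transcripts, the T cells or others, was not tested, nor was any part of such other cells in the results below. In bulk RNA, fewer cells expressing a gene and less RNA per cell cannot be told apart.

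Of 32 glycolysis and hypoxia genes tested, 3 (9.38%) passed the test, all lower with NFL, a share near the 7.0% of all genes tested that passed. Aldoc, the aldolase isoform best known from brain, fell by 32.6%, and Hk1, the ubiquitous hexokinase, fell by 8.02%. P4ha2, a collagen prolyl 4-hydroxylase subunit, fell by 41.4% from an already low level, with overlapping groups. Aldoc kept its call in 15 of 15 alternative analyses, Hk1 in only 6 of 15 and P4ha2 in 9 of the 14 that gave it an adjusted p. No member rose. The abundant enzymes (Gapdh, Eno1, Pkm, Aldoa), the glucose transporters Slc2a1 and Slc2a3, and Hif1a itself had fold changes close to 1 with narrow intervals.

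Of the 35 members, 32 had enough counts to be tested, and Ldhb, Pfkfb3 and Egln3 did not. Among the 32, 0 were higher and 3 were lower at an adjusted p under 0.05 (quasi-likelihood F test of edgeR, Benjamini-Hochberg adjusted over all 14082 genes tested). Over all genes tested the shares were 3.47% higher and 3.53% lower. An unadjusted p under 0.05 was found for 9 of 32 members, against 19.3% of all genes tested. The groups did not overlap for 7 members, which were above control for Hk2, Pgk1 and Ldha and below control for Hk1, Aldoc, Bnip3l and Kdm3a, and the background for groups that did not overlap was 22.7%. In 20 of 32 members the 95% interval of the difference lay within 10% of no difference, so for these genes a larger difference lay outside the interval. The same held for 2753 of all 14082 genes tested. Interval width depends on the counts, and members were not compared with other genes of like counts. The glycolysis genes had 2 calls among 21 tested and a median log2 fold change of -0.0046, and the HIF genes had 1 call among 11 tested and a median of -0.09, beside a median of -0.00099 over all genes tested. The log2 fold change was below 0 for 11 of 21 glycolysis genes and 10 of 11 HIF genes, against 50.4% of all genes tested.

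**Figure D1:**
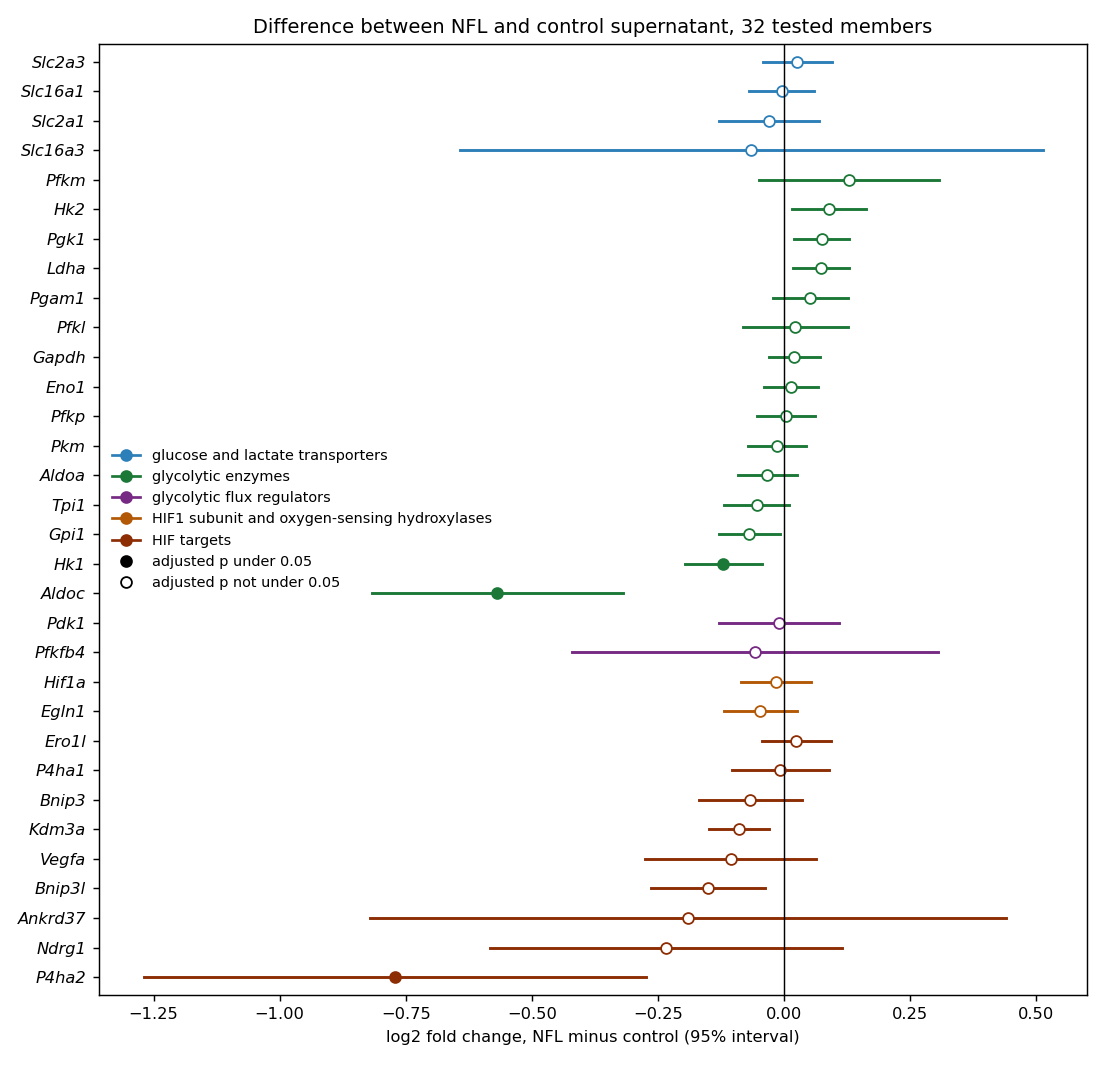
Log2 fold change of the 32 tested members (x axis, NFL minus control, log2 scale) with the 95% interval from edgeR as a horizontal line, grouped by role and coloured by role. Filled points are the 3 members with an adjusted p under 0.05, Aldoc at -0.57, Hk1 at -0.12 and P4ha2 at -0.77, and most other intervals lie on or close to 0.

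The sequence before the start of transcription is shown for the 3 genes that passed the test and for Hk2, Pgk1 and Ldha, whose groups did not overlap in the other direction. The stretches were taken from RefSeq promoter windows on GRCm38.p6 and end before any annotated exon of the gene. Capitals mark ACGTG, a form of the core of the HIF-binding element, or its reverse complement CACGT. The form GCGTG was not searched for, so the matches below leave it out.
Aldoc (chr11:78322823-78322967, plus strand): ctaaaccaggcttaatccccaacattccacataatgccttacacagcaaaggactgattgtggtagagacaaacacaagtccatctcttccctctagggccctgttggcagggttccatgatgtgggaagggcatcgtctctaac
Hk1 (chr10:62340543-62340671, minus strand): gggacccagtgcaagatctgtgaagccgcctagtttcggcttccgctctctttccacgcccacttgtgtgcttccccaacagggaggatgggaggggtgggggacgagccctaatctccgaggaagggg
Hk2 (chr6:82774455-82774704, minus strand): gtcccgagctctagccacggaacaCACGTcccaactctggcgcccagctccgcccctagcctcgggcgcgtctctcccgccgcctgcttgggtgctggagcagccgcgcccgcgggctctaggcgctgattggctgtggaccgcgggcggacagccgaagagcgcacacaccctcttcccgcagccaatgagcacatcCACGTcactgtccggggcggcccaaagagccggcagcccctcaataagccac
Pgk1 (chrX:106186850-106187099, plus strand): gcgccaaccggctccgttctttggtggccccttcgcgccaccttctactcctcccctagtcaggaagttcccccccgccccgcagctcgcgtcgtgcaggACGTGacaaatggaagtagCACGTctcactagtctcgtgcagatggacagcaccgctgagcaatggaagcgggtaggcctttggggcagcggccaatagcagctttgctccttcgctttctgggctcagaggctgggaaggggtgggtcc
Ldha (chr7:46845554-46845803, plus strand): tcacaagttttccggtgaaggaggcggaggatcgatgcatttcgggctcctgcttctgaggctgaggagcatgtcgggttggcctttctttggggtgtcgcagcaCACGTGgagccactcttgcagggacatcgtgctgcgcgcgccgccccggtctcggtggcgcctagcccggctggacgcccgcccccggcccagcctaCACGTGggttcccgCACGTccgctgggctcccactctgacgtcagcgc
P4ha2 (chr11:54100674-54100923, plus strand): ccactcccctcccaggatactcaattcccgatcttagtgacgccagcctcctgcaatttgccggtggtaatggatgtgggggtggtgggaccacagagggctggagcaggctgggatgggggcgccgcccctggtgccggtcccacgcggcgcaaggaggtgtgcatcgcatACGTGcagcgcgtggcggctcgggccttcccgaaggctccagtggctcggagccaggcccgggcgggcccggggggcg
The Hk2 and Pgk1 stretches carried 2 matches each and the P4ha2 stretch 1. The Ldha stretch had 5 matches at 3 places, because CACGTG reads as a match on both strands and also serves as the E-box that Myc-family factors bind. The stretches of Aldoc and Hk1 held none. Their whole windows of 300 bases (250 before and 50 after the start) held 1 and 2 matches. RefSeq also lists a second start for Aldoc, Hk1 and Ldha, not shown, and these 3 windows held 0 matches. Windows were found for 32 of the 35 members, and 23 of these genes (71.9%) had at least 1 match in a window, against 21.8% of 27025 genes with RefSeq windows. The share was 14 of 22 glycolysis genes (63.6%) and 9 of 10 HIF genes. Counted by window, the shares were 54.2% of 48 windows of members and 19.6% of all 32851 windows. The members were listed as glycolysis genes and HIF targets, so a high share was partly set by the choice of list and is no test. A match is a description of the letters and does not show that a factor was bound.

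The members spanned a wide range of levels, given here as CPM per kilobase of exon so that genes can be compared. Gapdh stood first with a mean of 554, followed by Pgk1 (300), Aldoa (272), Ldha (242), Pkm (168), Tpi1 (167) and Eno1 (156). The steps above aldolase were lower, with Gpi1 at 69.2, Pfkp at 35.3, Hk2 at 23.8 and Hk1 at 15.6. Hif1a stood at 34.1 and Egln1 at 47.4. Kdm3a (49.3) and Ero1l (37.7) were the most abundant HIF targets, whereas Ankrd37, Ndrg1 and P4ha2 were near or below 1. The order was not tested, and neighbours such as Pkm and Tpi1 differed by less than the spread between libraries.

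**Figure D2:**
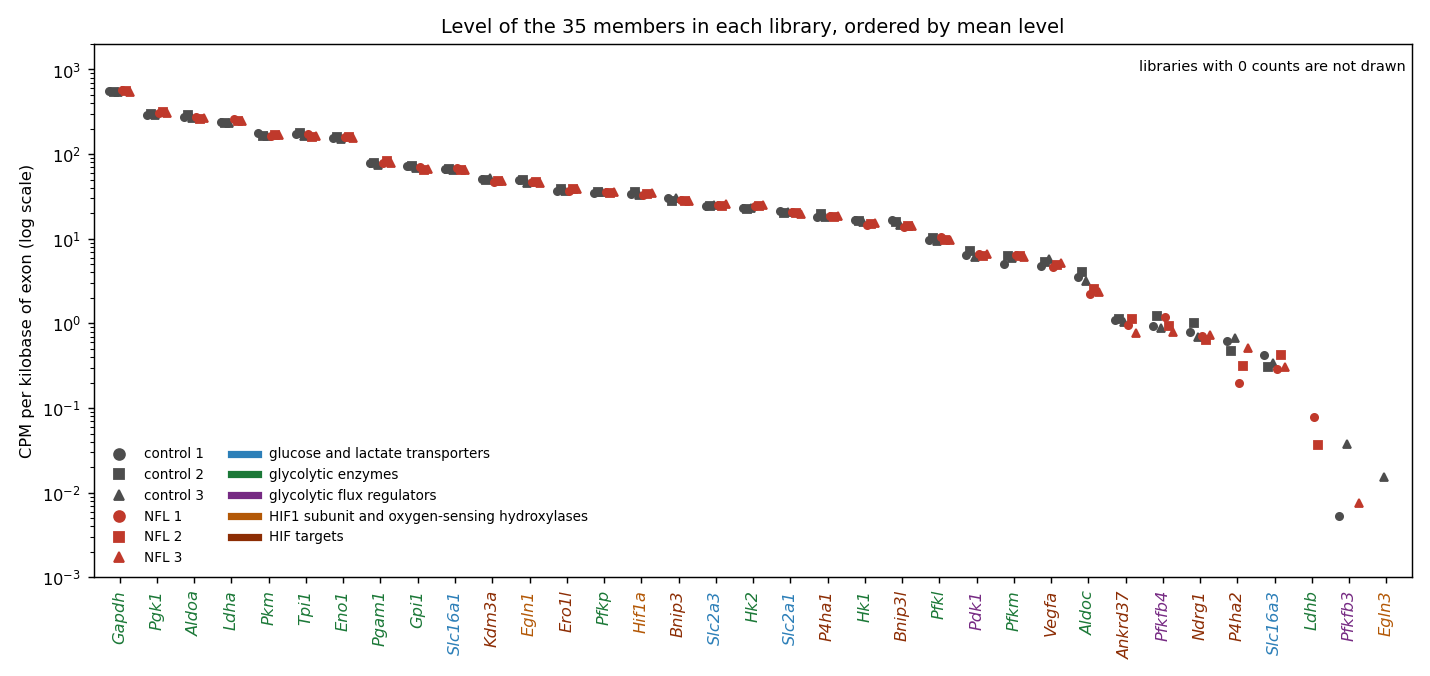
Level of each of the 35 members in each of the 6 libraries (y axis, CPM per kilobase of exon, log scale), ordered by mean level, with gene names coloured by role. Grey points are control libraries and red points NFL libraries, and they lie on top of each other for most genes, with Aldoc and P4ha2 visibly lower in NFL libraries.

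The carriers for glucose and lactate gave no call in either direction among 4 tested. Slc16a1, which encodes the monocarboxylate transporter MCT1, had 297, 295 and 285 CPM in control 1 to 3 and 303, 288 and 284 CPM in NFL 1 to 3. The groups overlapped, and its log2 fold change was -0.0046 ± 0.032 (standard error, SE, adjusted p = 0.963), with a 95% interval of -4.63% to 4.18%. Slc2a1 (GLUT1), the carrier usually induced when T cells are activated, ranged from 68.5 to 75.0 CPM over the 6 libraries, and Slc2a3 (GLUT3), the high-affinity carrier of resting and activated lymphocytes, from 177 to 186 CPM. Slc2a3 made up 53.5% to 54.9% of the counts per kilobase of both carriers in control libraries and 54.5% to 56.8% in NFL libraries. Slc16a3, the HIF-responsive lactate exporter MCT4, was nearly silent at 1.55 to 2.27 CPM, and its interval of -35.9% to 42.7% was wide.

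The hexokinases, which trap glucose in the cell as glucose 6-phosphate, gave 1 call. Hk1 (chr10:62268855-62379908, minus strand, GRCm38) had 142, 140 and 135 CPM in the control libraries and 124, 129 and 130 CPM in the NFL libraries. Every NFL library lay below every control library, with a log2 fold change of -0.12 ± 0.038 (SE, edgeR adjusted p = 0.0403). Hk2, the inducible isoform, had 138, 135 and 139 CPM with control and 146, 145 and 148 CPM with NFL supernatant. Its groups did not overlap either, but its log2 fold change of 0.09 ± 0.036 (SE) missed the threshold in the same test (adjusted p = 0.142). As a share of the counts per kilobase of both genes, Hk2 took 58.2%, 58.1% and 59.5% in control and 62.6%, 61.6% and 62.0% in NFL libraries, which is a description of the 2 genes and was not tested. The Hk1 call was weak. It was lost with offsets for GC content and gene length (log2 fold change -0.07, adjusted p = 0.33), under which Hk2 passed (adjusted p = 0.0463), with DESeq2, with thinned counts and without the filter (adjusted p = 0.0631 to 0.067), and when any NFL library, control 1 or control 2 was left out (adjusted p = 0.0671 to 0.207). Hk1 also shares 157 exonic bases with its antisense gene Hk1os, which held 45 to 88 counts per library against 2004 to 3498 for Hk1, and the sources do not say if counting was stranded.

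Further down the upper part of the pathway, Gpi1, the isomerase that makes fructose 6-phosphate, had 466, 462 and 442 CPM in control and 449, 423 and 434 CPM in NFL libraries (log2 fold change -0.07, adjusted p = 0.182). The groups overlapped, and the interval ran from -8.54% to -0.56%. Phosphofructokinase, which commits the sugar to glycolysis, was mostly the platelet isoform Pfkp, with 468, 472 and 477 CPM in control and 475, 464 and 482 CPM in NFL libraries (log2 fold change 0.0043, adjusted p = 0.961). Pfkp took 67.9% to 70.4% of the counts per kilobase of the 3 isoforms over all libraries, the liver isoform Pfkl 18.3% to 19.8% and the muscle isoform Pfkm 10.1% to 12.5%, and the groups overlapped for each share. Pfkp shares 748 exonic bases with Pitrm1 on the opposite strand.

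The aldolases gave the firmest difference among the members. Aldoc (chr11:78322968-78327781, plus strand, GRCm38) had 11.5, 13.0 and 10.4 CPM in the control libraries and 7.27, 8.43 and 7.70 CPM in the NFL libraries, from 208 to 284 and 117 to 145 counts. All NFL libraries lay below all control libraries. The log2 fold change was -0.57 ± 0.12 (SE, edgeR adjusted p = 0.0016), an interval of -43.3% to -19.8%, and it stayed past the threshold in 15 of 15 alternative analyses (highest adjusted p = 0.017). Aldoa, the main aldolase of the cells, had 791, 844 and 769 CPM in control and 802, 767 and 779 CPM in NFL libraries. Its groups overlapped, with a log2 fold change of -0.03 (adjusted p = 0.605). Because Aldoc made up only 1.19% to 1.36% of the aldolase counts per kilobase in control libraries and 0.80% to 0.97% in NFL libraries, the sum of both aldolases was set by Aldoa.

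The enzymes that follow, where the pathway gains ATP and NADH, were abundant and gave no call. Gapdh, which oxidizes glyceraldehyde 3-phosphate, had 2332, 2250 and 2236 CPM in control and 2358, 2301 and 2258 CPM in NFL libraries, with an interval of -2.04% to 5.02%. Tpi1, triose-phosphate isomerase, had 474, 491 and 445 CPM in control and 474, 435 and 449 CPM in NFL libraries (interval -7.88% to 0.75%). Both overlapped between the groups and neither passed the test (adjusted p = 0.735 and 0.384). Pgk1, the first ATP-yielding kinase of the pathway, had 654, 665 and 646 CPM in control and 682, 696 and 689 CPM in NFL libraries. All 3 NFL libraries lay above all controls, but the log2 fold change of 0.07 missed the threshold (adjusted p = 0.0911), and it passed with limma-voom (adjusted p = 0.0365) and without control 2 (adjusted p = 0.0374). Eno1, enolase 1, had 845, 846 and 820 CPM in control and 861, 850 and 825 CPM in NFL libraries. Pkm, pyruvate kinase, had 887, 823 and 820 CPM in control and 829, 844 and 833 CPM in NFL libraries. Their groups overlapped and their intervals were -2.77% to 4.84% and -4.81% to 3.03%. Pkm shares 767 exonic bases with Gm49759 on the same strand, a row with 1004 to 1599 counts per library.

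Lactate dehydrogenase, which regenerates NAD+ by reducing pyruvate, was made up of the A subunit. Ldha had 793, 782 and 771 CPM in control and 851, 809 and 808 CPM in NFL libraries, with no overlap. Its log2 fold change of 0.07 ± 0.027 (SE, interval 1.28% to 9.33%) missed the threshold (adjusted p = 0.1000) and passed with limma-voom (adjusted p = 0.0490). Ldhb, the heart-type subunit, had 0 to 2 counts per library, which is under the floor of 3 counts. Hk2, Pgk1 and Ldha were the 3 members whose NFL libraries all lay above the controls, by 5.23% to 6.39%, and 11.5% of all genes tested had the same separation. The 16 enzymes together took 0.823%, 0.821% and 0.798% of the library counts in control 1 to 3 and 0.826%, 0.807% and 0.802% in NFL 1 to 3. The groups overlapped, and their means differed by less than the spread between replicates. Several enzymes, among them Gapdh, Aldoa, Pgk1, Tpi1, Eno1, Pkm, Pgam1 and Ldha, have near-identical processed pseudogenes with which reads could have been shared, and how such reads were counted is not stated.

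**Figure D3:**
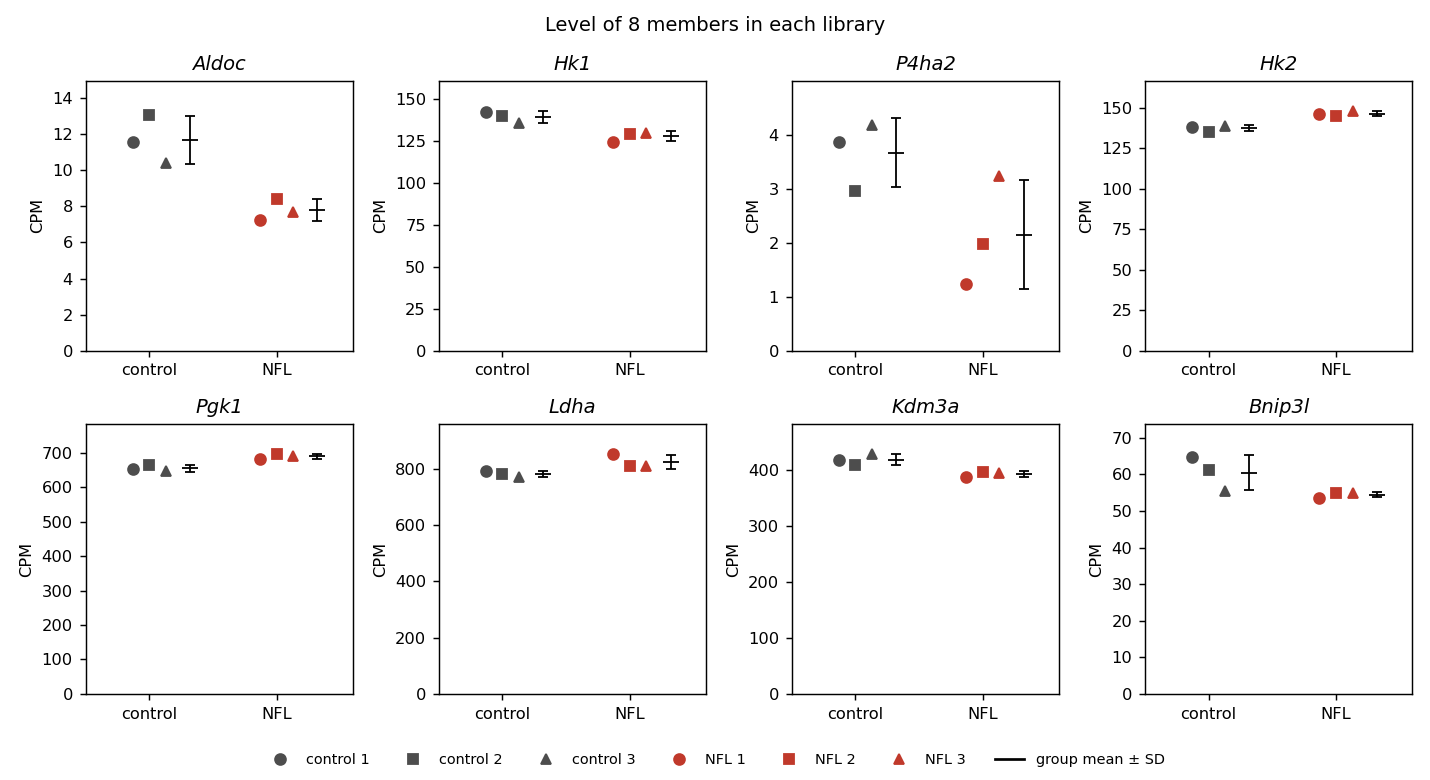
CPM of 8 members in each library (y axes start at 0), with control libraries in grey, NFL libraries in red and a bar for the group mean ± SD (n = 3). Aldoc, Hk1, Kdm3a and Bnip3l lie lower in all NFL libraries, Hk2, Pgk1 and Ldha lie higher in all of them, and P4ha2 overlaps, with NFL 3 (3.23 CPM) above control 2 (2.95 CPM).

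**Figure D4:**
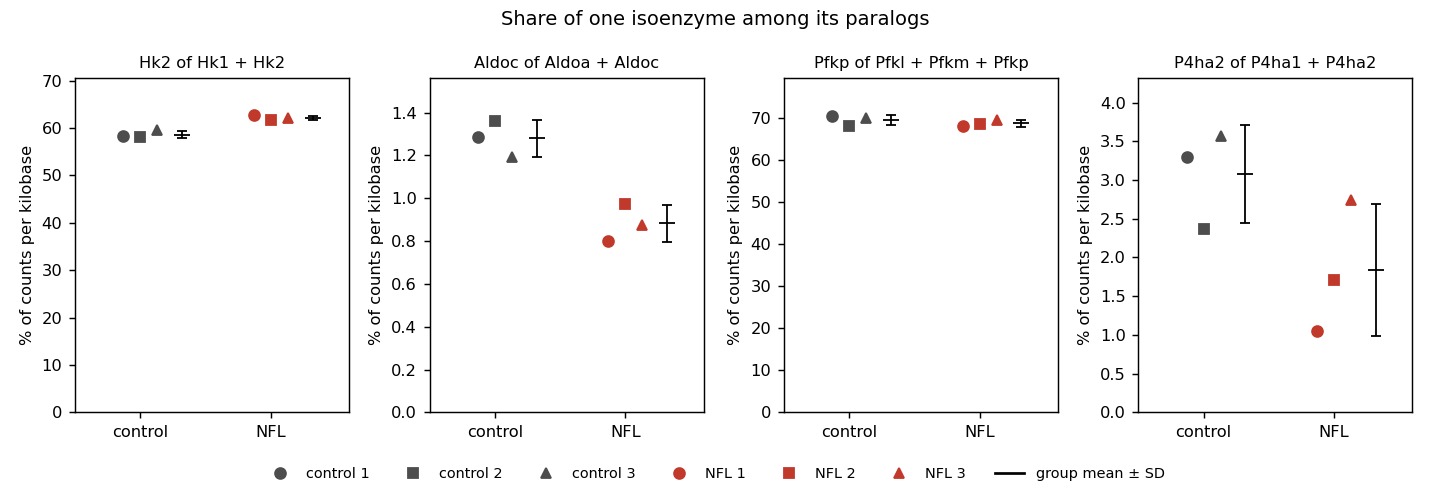
Share of 1 isoenzyme among its paralogs in each library (y axes in % of counts per kilobase, starting at 0), with the group mean ± SD (n = 3). The Hk2 share was higher in all NFL libraries (61.6% to 62.6% against 58.1% to 59.5%) and the Aldoc share lower (0.80% to 0.97% against 1.19% to 1.36%), while the Pfkp and P4ha2 shares overlapped.

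The flux regulators gave no call. Pdk1, the kinase that shuts pyruvate dehydrogenase and so diverts pyruvate to lactate, ranged from 48.0 to 56.0 CPM (log2 fold change -0.01, interval -8.50% to 7.85%). Pfkfb4, which makes the phosphofructokinase activator fructose 2,6-bisphosphate, ranged from 3.85 to 6.03 CPM, and the HIF-responsive Pfkfb3 had 0 to 7 counts per library.

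In the oxygen-sensing arm, Hif1a had 199, 211 and 197 CPM in control and 195, 198 and 206 CPM in NFL libraries. The groups overlapped, with a log2 fold change of -0.02 ± 0.034 (SE, adjusted p = 0.871) and an interval of -5.68% to 3.81%. Egln1 (PHD2), the main hydroxylase that marks HIF1α for degradation, had a log2 fold change of -0.05 (adjusted p = 0.535). Egln3 (PHD3), a hydroxylase that HIF itself induces, had 0 or 1 count per library in all 6 libraries.

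Among the 9 HIF targets, 1 passed the test, and 8 had a log2 fold change below 0 (median -0.11). P4ha2 (chr11:54100095-54131665, plus strand, GRCm38) had 3.86, 2.95 and 4.18 CPM in the control libraries and 1.24, 1.98 and 3.23 CPM in the NFL libraries, from 20 to 102 counts. NFL 3 lay above control 2, so the groups overlapped, and NFL 1 was the lowest. The log2 fold change was -0.77 ± 0.25 (SE, edgeR adjusted p = 0.0455). The call was lost when NFL 1, NFL 2, control 1 or control 3 was left out (adjusted p = 0.14 to 0.279) and with GC and length offsets (adjusted p = 0.0554), and without NFL 1 the log2 fold change was -0.51. Its paralog P4ha1 ranged from 74.3 to 80.4 CPM (log2 fold change -0.0074, interval -6.92% to 6.34%).

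Kdm3a, a histone demethylase induced by hypoxia, was the most abundant target and had 418, 408 and 428 CPM in control and 387, 397 and 395 CPM in NFL libraries. The groups did not overlap, and its log2 fold change of -0.09 ± 0.029 (SE, interval -9.73% to -2.03%) lay just beyond the threshold (adjusted p = 0.0555). It passed in 6 of 15 alternative analyses, among them limma-voom (adjusted p = 0.0339), library size alone (adjusted p = 0.0200) and leaving out control 2 (adjusted p = 0.0197). Bnip3l, a mitophagy receptor, had 64.8, 61.3 and 55.4 CPM in control and 53.6, 54.9 and 54.9 CPM in NFL libraries, again without overlap (log2 fold change -0.15, adjusted p = 0.101, and 0.0171 without control 3). Its relative Bnip3 overlapped between groups (63.0 to 69.0 CPM in control, 63.2 to 65.2 CPM in NFL libraries), as did Vegfa, the angiogenic growth factor (20.7 to 24.7 and 20.1 to 22.2 CPM). Ero1l, an oxidase of the endoplasmic reticulum, was the only target with a log2 fold change above 0 (0.02, interval -3.03% to 6.64%). Ndrg1 (log2 fold change -0.23) and Ankrd37 (-0.19) were measured from few reads and their intervals ran from -33.3% to 8.32% and from -43.4% to 35.6%. The sum of the 9 targets was 853, 849 and 856 CPM in control and 803, 823 and 826 CPM in NFL libraries, with Kdm3a the largest part of it. This sum is a description without a test.

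Outside the 35 members, 116 genes of the surrounding pathways were counted in 5 lists, and 8 of 93 tested (8.6%) passed, 2 higher and 6 lower, again close to the background of 7.0%. In the list of other glycolysis and pyruvate genes, 1 of 22 tested was higher and 0 were lower. That gene was Pdhb, the E1β subunit of the pyruvate dehydrogenase complex, which turns pyruvate into acetyl-CoA. It had 138, 135 and 133 CPM in control and 155, 149 and 156 CPM in NFL libraries (log2 fold change 0.18 ± 0.037 SE, adjusted p = 5.46e-04), and it passed in 15 of 15 alternatives. Its partner Pdha1, the most abundant gene of that list, had a log2 fold change of 0.03 (adjusted p = 0.728), and Dlat, the E2 subunit, one of 0.10 (adjusted p = 0.193). In the pentose phosphate and glycogen branches, 0 of 14 tested genes passed in edgeR's test and 2 had an unadjusted p under 0.05, which 19.3% of all genes tested had. Rpia, the most abundant, had a log2 fold change of 0.0048 (adjusted p = 0.961). Of 12 tested HIF pathway components, such as Arnt, Vhl and the hydroxylase Egln2, 0 passed in edgeR's test. An unadjusted p under 0.05 was found for 5 of the 12, a larger share than the 19.3% of all genes tested. Among these 5, the log2 fold change was above 0 for Epas1 (0.94, adjusted p = 0.168, 9 to 28 counts per library) and Eloc (0.12, adjusted p = 0.0941). It was below 0 for Vhl (-0.18, adjusted p = 0.107) and Elob (-0.12, adjusted p = 0.0782). It was also below 0 for Ep300, a coactivator of HIF1 and the most abundant of the 12 (-0.08, adjusted p = 0.149).

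Other HIF targets gave 1 higher and 3 lower of 24 tested (16.7%), beside 7.0% of all genes tested (3.47% higher and 3.53% lower). Wsb1, a ubiquitin ligase adaptor, rose from 143, 138 and 139 CPM to 157, 152 and 157 CPM (log2 fold change 0.15, adjusted p = 0.0064, and 0.056 without NFL 3). Plin2, the coat protein of lipid droplets, fell from 208, 199 and 203 CPM to 185, 177 and 178 CPM (log2 fold change -0.18, adjusted p = 2.84e-04) and passed in 15 of 15 alternatives. Car12, a cell-surface carbonic anhydrase, fell from 77.9, 69.3 and 69.2 CPM to 63.3, 63.4 and 64.0 CPM (log2 fold change -0.19, adjusted p = 0.0169). Its call was lost without any of the NFL libraries or without control 1 (adjusted p = 0.0645 to 0.261), and without control 1 the log2 fold change was -0.12. Mxi1, an antagonist of Myc, fell from 36.0, 36.3 and 34.3 CPM to 29.5, 31.2 and 31.3 CPM (log2 fold change -0.21, adjusted p = 0.0469) but passed in only 4 of 15 alternatives and lost its call on leaving out each of the 6 libraries (adjusted p = 0.052 to 0.166). Car9, the hypoxia-specific carbonic anhydrase, had a log2 fold change of -0.35 and did not pass (adjusted p = 0.195). It shares 214 exonic bases with Gm12454 on the opposite strand. Gm12454 held 79 to 190 counts per library against 73 to 164 for Car9, so the 2 genes may not have been counted apart. Tfrc, the transferrin receptor and the most abundant gene of the list, had one of 0.05 (adjusted p = 0.289).

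Among regulators of T-cell glucose metabolism, 0 were higher and 3 (14.3%) lower of 21 tested, beside 3.47% higher and 3.53% lower over all genes tested. Txnip, which restrains glucose uptake through the GLUT carriers, fell from 112, 118 and 114 CPM to 92.2, 96.0 and 94.4 CPM (log2 fold change -0.28 ± 0.041 SE, adjusted p = 1.93e-06). Mxd4, a partner of Max that opposes Myc, fell from 30.5, 29.5 and 29.6 CPM to 23.1, 20.2 and 19.1 CPM (log2 fold change -0.53 ± 0.079 SE, adjusted p = 3.56e-06). Both passed in 15 of 15 alternatives. Pik3ip1, an inhibitor of PI3-kinase, fell from 14.5, 15.6 and 16.2 CPM to 10.7, 13.1 and 12.3 CPM (log2 fold change -0.36, adjusted p = 0.0247), a call that was lost without NFL 1, NFL 3 or control 3 (adjusted p = 0.0804 to 0.158). The most abundant gene of the list, Akt1, had a log2 fold change of 0.07 (adjusted p = 0.190), and Myc one of -0.06 (adjusted p = 0.434). The 3 that fell are known as brakes on glucose uptake, Myc or PI3-kinase.

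**Figure D5:**
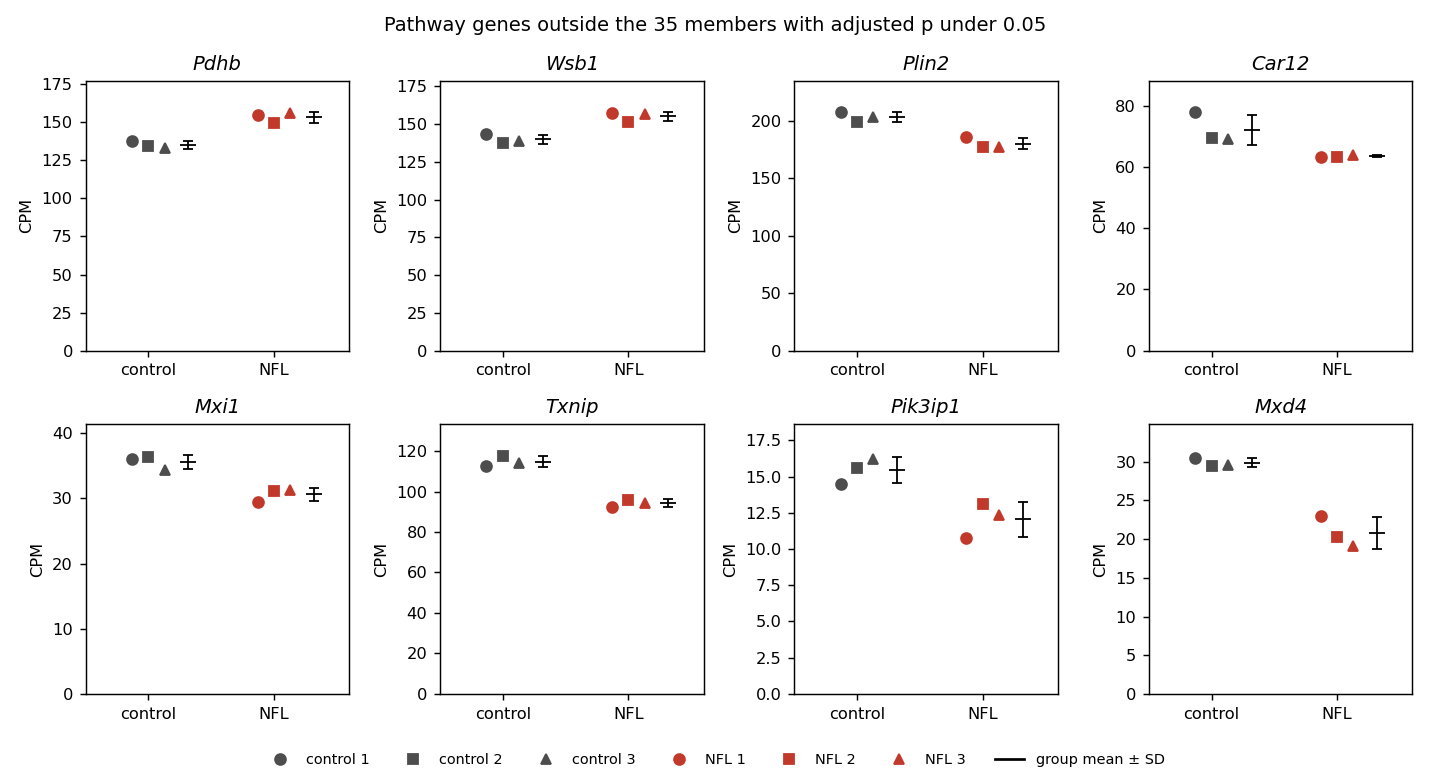
CPM of the 8 pathway genes outside the 35 members with an adjusted p under 0.05, in each library (y axes start at 0), with the group mean ± SD (n = 3). Pdhb and Wsb1 lie higher and Plin2, Car12, Mxi1, Txnip, Pik3ip1 and Mxd4 lower in all 3 NFL libraries, and the groups do not overlap for any of the 8.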

How the data were processed

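RNA from 6 T-cell cultures was measured by poly(A)-selected Illumina sequencing. The authors deposited raw read counts per gene, 1 column per sample, without normalization, and each column was matched to its sample by group letter and number (0 columns were left without a sample). The processing notes in the labels name GRCm39, R 4.2.1 and limma 3.54.2, whereas 54349 of the 55401 gene identifiers (98.1%) were identical to GENCODE M21, built on GRCm38. Coordinates are therefore M21's and are printed only for identical identifiers, which held for 32 of the 35 members. Aligner, counting program and strandedness are not given in the sources used here. A total of 55141 identifiers received a symbol. A second row named Aldoa held 6 counts in all and was not used.

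Genes were filtered with filterByExpr (minimum count 10, minimum total 15), scaled by TMM (factors 0.994 to 1.007) and fitted in edgeR 4.0.16 (glmQLFit, then glmQLFTest) under R 4.3.3, NFL minus control, without a replicate block, with a threshold of 0.05 after Benjamini-Hochberg adjustment over 14082 genes. What edgeR calls the biological coefficient of variation was 3.48%. It measures the spread between these samples, which may be technical. CPM used the TMM-scaled library sizes, and lengths were the union of M21 exons. Library depths limit counting precision, and the floor of 3 counts covers counting error only. Alternatives used DESeq2 1.42.0, limma-voom 3.58.1, other scalings and filters, thinning, GC and length offsets, a replicate block and leaving out each library.

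Values in every library are given for members past the threshold, the 12 most abundant by mean CPM, Hif1a, and members whose groups did not overlap at a log2 fold change of 0.3 or more in size. Of each pathway list, genes past the threshold (at most 6) and the most abundant gene are named, with overlapping annotated genes as a limit. Hk2, Bnip3l, Dlat, Epas1, Eloc, Vhl, Elob, Car9 and Myc were named with values after these had been seen. Members outside the rule are given by range. The members, lists and rules were chosen with earlier results of these data known. Promoter windows are RefSeq's for GRCm38.p6, where Ero1l is listed as Ero1a. A withheld marker gene is not reported here, although the sum over its list includes it. Figures were drawn with matplotlib 3.10.9.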

Additional observations from a re-analysis of the deposited data

How the results depend on the processing

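All alternatives were set with the design. Over 475 alternative values of single members, 419 kept their direction and their side of the threshold, 12 passed it newly, 14 lost it and 30 changed sign, and 0 of those that changed sign had an adjusted p under 0.05. DESeq2 gave no adjusted p for 5 low-count members. With an adjusted p under 0.01, 500 genes in all, 1 glycolysis member (Aldoc) and 0 HIF members passed. The count of glycolysis members past the threshold was 1 with DESeq2's Wald test, without the filter and with thinned counts, and 4 with limma-voom. The count of HIF members was 2 with at least 10 counts in every sample, with library size alone and with limma-voom. Leaving out each library gave 508 to 966 genes, 1 to 2 glycolysis members, 0 to 2 HIF members and 4 to 8 pathway genes, the lowest of the first and last without NFL 3 (616 genes without NFL 2). The causes of these moves were not tested.

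With the replicate number as a block, 1049 genes, 2 glycolysis members and 2 HIF members passed, the addition being Kdm3a (adjusted p = 0.0452). It changed no other call of a member. The numbers were not taken as a pairing, since the deviations of same-numbered libraries correlated at 0.0074 to 0.0148, although each library correlated best with its own number.

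Log2 fold changes that changed sign lay between -0.0098 and 0.0830 after the change, the largest for Pfkfb4 and Slc16a3. With thinned counts they were 0.0144 for Slc16a3, -0.0018 for Pfkl and 0.0020 for Pfkfb4. With library size alone they were -0.0098 for Pfkp and -0.00017 for Eno1, where the median of all genes shifted by -0.0139. With GC and length offsets they were 0.0202 for Pkm and 0.0011 for Pdk1, which had 0.0013 with limma-voom. Leaving out 1 library at a time gave -0.0298 to 0.0150 for Slc16a1, -0.249 to 0.0816 for Slc16a3, -0.0098 to 0.0587 for Pfkl, -0.0079 to 0.0220 for Pfkp, -0.0635 to 0.0071 for Aldoa, -0.0022 to 0.0311 for Eno1, -0.0353 to 0.0262 for Pkm, -0.217 to 0.0830 for Pfkfb4, -0.0575 to 0.0529 for Pdk1, -0.0380 to 0.0172 for Hif1a and -0.0277 to 0.0287 for P4ha1. Low counts left Ldhb, Pfkfb3 and Egln3 untested and gave Slc16a3, Ankrd37, Ndrg1, Pfkfb4 and P4ha2 wide intervals.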
